A study of Caenorhabditis elegans with 2 samples.

Results

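ZTF-11 peaks were examined at 9 *Caenorhabditis elegans* genes: 8 genes of microRNA processing and silencing (*drsh-1*, *pash-1*, *dcr-1*, *alg-1*, *alg-2*, *ain-1*, *ain-2* and *nhl-2*) and the Pumilio family gene *puf-9*. They are 9 of 19973 protein-coding genes on the nuclear chromosomes. The set was chosen by a list of pathway genes and by the thresholded peaks at *ain-1* and *puf-9*, so the signals of those 2 peaks are given as a description and are not tested. For each gene, every peak with its summit from 5 kb upstream of the annotated 5′ end to the end of the gene body was taken. The data are chromatin immunoprecipitation followed by sequencing (ChIP-seq) of ZTF-11 fused to eGFP, a green fluorescent protein, in whole L4 larvae of both sexes. There was 1 group with 2 biological replicates from strain OP236, which carries *unc-119(ed3)* on chromosome III and the transgene wgIs236. Both replicates carry the same mutation and transgene, and no second condition was compared. Because whole animals were used, a peak cannot be placed in a tissue. Sequencing depth is unknown because only peaks, not read counts, were used. The replicate lists stand apart in one deposited column: the −log10 q value reached 0.629 in replicate 1, below the lowest of replicate 2, which was 2.58. The sources do not say whether that column was computed alike for each list, so it is not read as a difference in strength. Results are therefore given for each replicate as well as for the pooled list. The pooled list was deposited as peaks and background together. Its weaker entries are called peaks here but need not be bound sites.

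ZTF-11 is a zinc finger transcription factor of the Myt1 family, known for repressing non-neuronal genes in neurogenesis. MicroRNAs are cut from long primary transcripts in the nucleus by Drosha (*drsh-1*) with its partner Pasha (*pash-1*), and cut again in the cytoplasm by Dicer (*dcr-1*). The mature microRNA is loaded into an Argonaute protein (*alg-1*, *alg-2*), which pairs with a target messenger RNA. GW182-family proteins (*ain-1*, *ain-2*) join Argonaute to the machinery that removes poly(A) tails and blocks translation, and NHL-2 acts as a cofactor of the silencing complex. In larvae this pathway is best known for the timing of development by *lin-4* and *let-7*. PUF-9 is an RNA-binding protein that acts with *let-7* in the repression of *hbl-1*.

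The peaks that the results turn on lay at the promoters of *puf-9*, *ain-1* and *nhl-2*. Their reference sequences are shown because the 3 peaks that replicate 2 ranked high and the *nhl-2* peak that only replicate 1 overlapped differed in base content. All are from the RefSeq genome WBcel235 (ce11 coordinates), plus strand, in lower case, and capitals mark each match to GAGAG or, on the other strand, CTCTC. The *puf-9* and *ain-1* peaks named thresholded passed the authors' limit on the irreproducible discovery rate (IDR). That rate is a measure of how well replicates agree on a peak's rank. Passing the limit did not mean that the 2 replicate lists ranked a peak alike. The peaks that overlapped the thresholded *ain-1* peak ranked 26290 in replicate 1 and 18 in replicate 2.
puf-9, thresholded, chrX:5841151-5841430: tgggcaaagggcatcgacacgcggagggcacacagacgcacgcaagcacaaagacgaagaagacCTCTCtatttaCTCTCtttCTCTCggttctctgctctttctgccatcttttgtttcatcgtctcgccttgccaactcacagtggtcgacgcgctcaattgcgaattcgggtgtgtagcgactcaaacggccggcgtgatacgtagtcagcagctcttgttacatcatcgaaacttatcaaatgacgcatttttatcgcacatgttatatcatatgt
ain-1, thresholded, chrX:16612340-16612619: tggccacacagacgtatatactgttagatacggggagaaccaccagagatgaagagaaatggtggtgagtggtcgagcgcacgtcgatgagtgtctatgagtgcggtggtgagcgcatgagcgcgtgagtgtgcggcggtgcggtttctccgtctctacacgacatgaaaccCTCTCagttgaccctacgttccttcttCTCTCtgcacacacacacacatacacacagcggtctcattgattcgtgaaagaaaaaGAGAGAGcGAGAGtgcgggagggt
nhl-2, replicate 2, chrIII:4899755-4899950: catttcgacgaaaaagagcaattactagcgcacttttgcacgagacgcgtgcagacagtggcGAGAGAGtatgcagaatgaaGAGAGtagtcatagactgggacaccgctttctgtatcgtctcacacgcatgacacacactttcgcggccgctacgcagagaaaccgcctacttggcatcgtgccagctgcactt
nhl-2, pooled, chrIII:4899229-4899508: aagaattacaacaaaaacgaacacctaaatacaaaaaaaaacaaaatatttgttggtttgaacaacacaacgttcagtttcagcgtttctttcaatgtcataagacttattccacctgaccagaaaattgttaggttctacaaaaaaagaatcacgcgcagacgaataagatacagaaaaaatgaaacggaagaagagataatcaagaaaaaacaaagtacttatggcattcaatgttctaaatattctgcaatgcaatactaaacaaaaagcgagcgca

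The top 3 of these sequences had a G and C content of 48.6%, 53.2% and 52%, and the pooled *nhl-2* peak had 31.8%. The 47 thresholded peaks had a median of 41.4%, with a range from 28.9% to 53.2%, so the *ain-1* peak was at the top of that range. GAGAG, counted on both strands with overlapping matches kept, occurred 3 times in the *puf-9* peak, 5 times in the thresholded *ain-1* peak and 3 times in the replicate 2 peak of *nhl-2*. It occurred 0 times in the pooled *nhl-2* peak. Of the thresholded peaks 48.9% held it, as did 45.9% of the 1000 strongest pooled peaks and 33.6% of all 30000 pooled peaks. AAAGTTT, the core known for Myt1-family proteins, was in none of the 4 sequences, and 8.51% of the thresholded peaks and 15.1% of the 1000 strongest pooled peaks held it. The shorter AAGTT occurred once in the *puf-9* peak and 0 times in the other 3; 57.4% of the thresholded peaks held it. CANNTG, searched as the E-box, occurred 4 times in the *puf-9* peak and once in each of the other 3. Of the thresholded peaks 72.3% held it, with a mean of 1.3 matches. The motif TTTGAA occurred once in the pooled *nhl-2* peak and 0 times in the other 3; 48.9% of the thresholded peaks held it. The shares are of peaks with a median width of 280 bp, so they are not matched to the replicate 2 peak of *nhl-2*, which is 196 bp long. These matches describe the letters in each window only.

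*puf-9* had the strongest peak of the 9 genes, and both replicates placed it at the same position. The gene (WBGene00004245) lies at 5841592 to 5845987 on the plus strand of X. Its thresholded peak had a signal of 39.2, on a scale the sources do not state, and ranked 16 of 30000 in the pooled list. In replicate 1 the peak there had a signal of 15.7 and rank 402, and in replicate 2 it had a signal of 28.7 and rank 2. The summits lay 301 bp (pooled), 303 bp (replicate 1) and 295 bp (replicate 2) upstream of the 5′ end, which is a spread of 8 bp between replicates. The short non-coding RNA genes W06B11.7 and W06B11.9, which lie on opposite strands, are annotated under the summit, and no other protein-coding gene has its promoter there. Signals of different lists are on different scales, so ranks are the measure that can be set side by side.

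A second, weaker site of *puf-9* lay in its 3′ untranslated region (UTR) and came from replicate 1. Its pooled signal was 13.5 (rank 1175), in a peak from 5845099 to 5845378 whose summit lay 3647 bp past the 5′ end. Replicate 1 held a peak there with a signal of 16.8 and rank 267, its highest in the gene, and replicate 2 had no overlapping peak. The strongest summits of the replicates in the *puf-9* region were thus 3941 bp apart, although both also marked the promoter. Of the other peaks in the region, the pooled peak in an intron had a signal of 7.75. The replicate 1 peaks at 1804 and 3845 bp had signals of 6.1 and 8.06, and the replicate 2 peak at 1955 bp had 3.15.

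**Figure D1:**
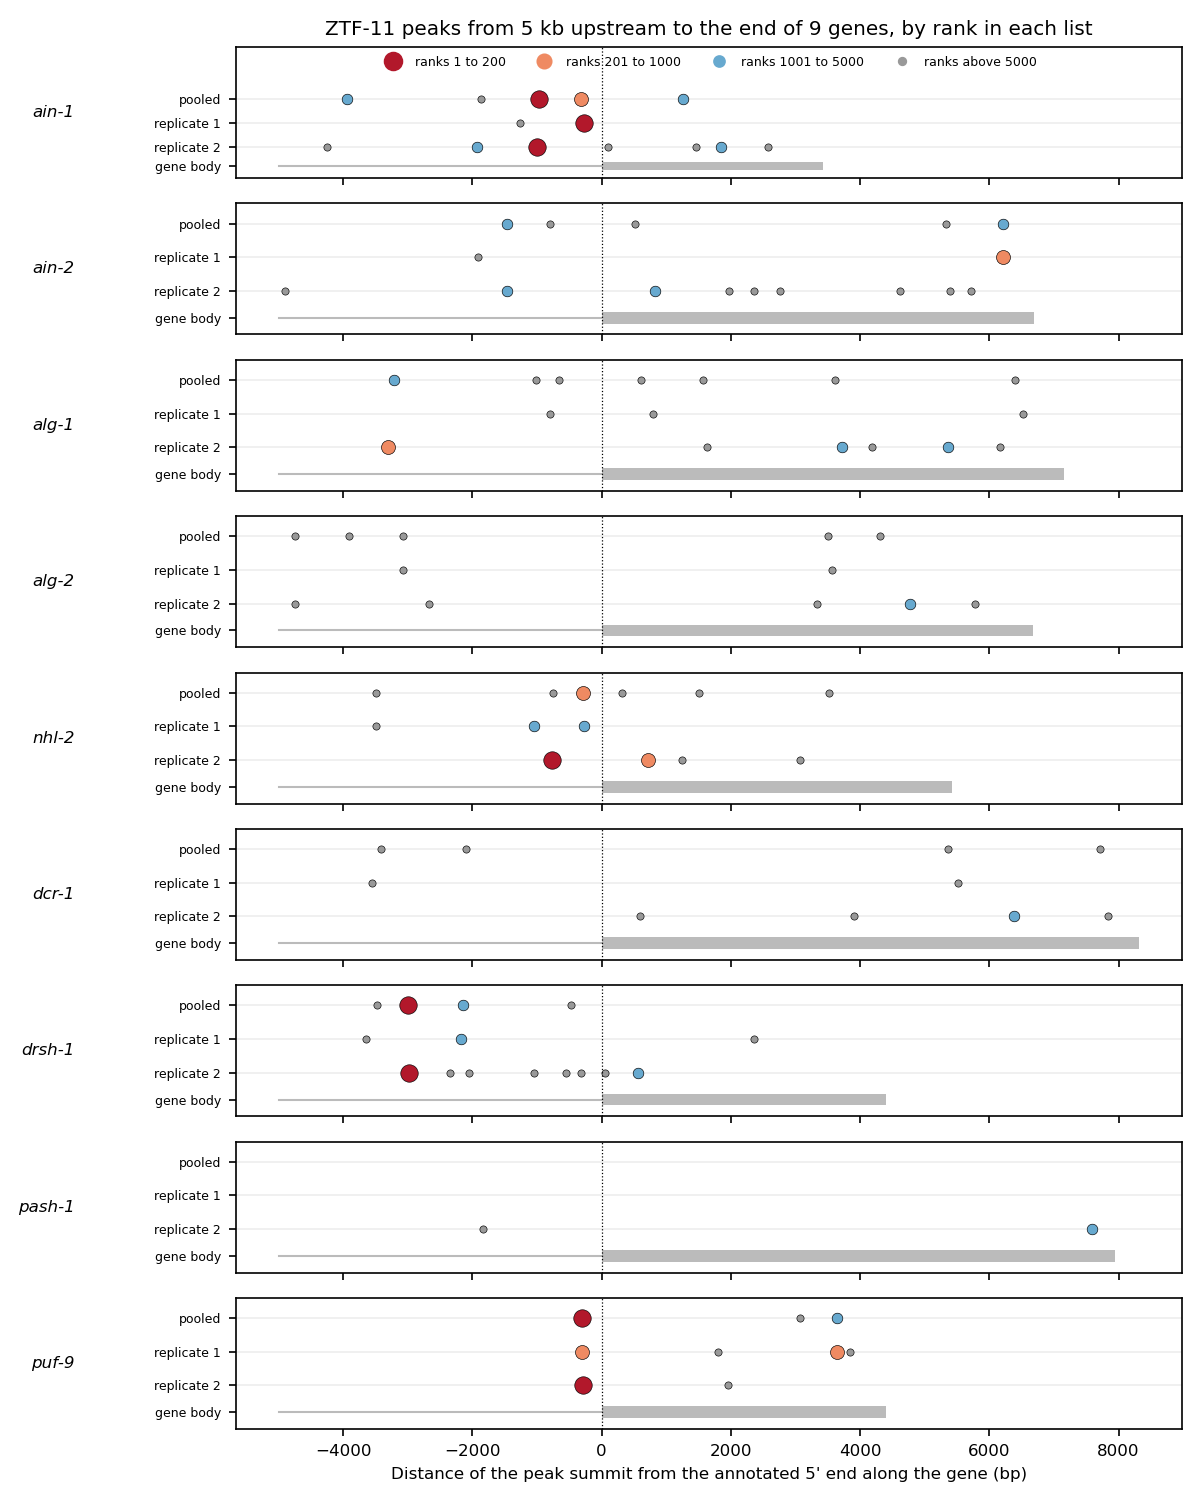
Peaks along the 9 genes in the pooled list and in each replicate; the horizontal axis is the distance of the summit from the 5′ end in bp, the grey bar is the gene body, and the size and colour of a point give the rank of the peak in its own list. At *puf-9* the 3 lists mark the same place near the 5′ end, while upstream of *ain-1* and *nhl-2* the strongest points of the replicates stand apart.

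*ain-1*, the GW182-family gene on X (WBGene00015547, 16613451 to 16616871, plus strand), had a thresholded peak that rested on replicate 2. Its pooled signal was 30.1, at rank 33, with the summit 971 bp upstream of the 5′ end. Replicate 2 held a peak of signal 19.6 there, at rank 18, with its summit 35 bp from the pooled one. That summit, 1006 bp upstream, fell just outside the promoter window of 1000 bp upstream, which holds the pooled one. In replicate 1 the only overlapping peak had a signal of 5.95 and rank 26290, shared 35 bp with the pooled peak and had its summit 300 bp away. The strongest replicate 1 peak of the gene was closer to the gene, 279 bp upstream of the 5′ end, with a signal of 17.9 and rank 173. It underlies the second pooled peak (signal 14.2, rank 849, 322 bp upstream), which no replicate 2 peak overlapped. The strongest summits of the replicates were therefore 727 bp apart. No promoter of another protein-coding gene holds either summit.

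The rest of the *ain-1* region held weaker peaks. A pooled peak in the coding sequence, 1261 bp past the 5′ end, had a signal of 13.1 and rank 1395. Replicate 2 had 7 peaks in the region and replicate 1 had 2. Among the former were 3 in coding sequence, the highest with a signal of 6.74 at rank 1615. The pooled peak 3941 bp upstream (signal 10.6) lay within F59C12.3, the neighbouring gene on the minus strand.

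*nhl-2*, which encodes a TRIM-NHL protein, showed the same separation of the replicates at its promoter, below the threshold. The gene (WBGene00003598) lies at 4893658 to 4899085 on the minus strand of chromosome III. The strongest pooled peak had a signal of 15.7 and rank 466, 284 bp upstream of the 5′ end. Replicate 1 had a peak 274 bp upstream, with a signal of 12.9 and rank 1537, and replicate 2 had none overlapping it. Replicate 2 instead had a peak 768 bp upstream, with a signal of 15.6 and rank 46, where the pooled peak had a signal of only 9.02 and rank 8720. A further replicate 1 peak, 1053 bp upstream with a signal of 12.3, shared 35 bp with that pooled peak. The strongest summits of the replicates were 494 bp apart. The site 768 bp upstream also lies in the promoter window of *tag-340*, which runs the opposite way, and within the non-coding RNA gene F26F4.14.

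**Figure D2:**
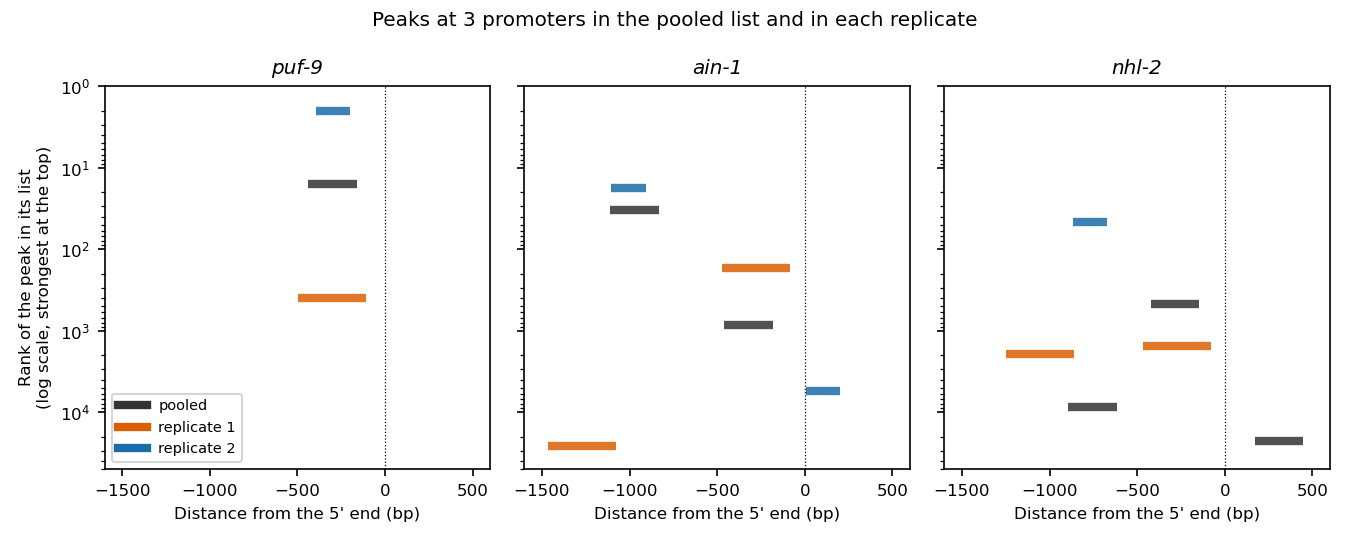
Peaks near the 5′ end of *puf-9*, *ain-1* and *nhl-2*; bars give the extent of each peak in bp and the vertical axis its rank in its own list on a log scale, with rank 1 at the top. The bars of the replicates coincide at *puf-9* (ranks 402 and 2) and are apart at *ain-1* (ranks 173 and 18) and *nhl-2* (ranks 1537 and 46).

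*ain-2*, the other GW182-family gene, had weaker peaks than *ain-1*, and again the replicates marked different places. The gene (WBGene00015007, 4653467 to 4660153, plus strand) is on chromosome I. Its highest pooled signal, 12.3 at rank 1983, lay in the 3′ UTR, 6210 bp past the 5′ end. Replicate 1 had a peak at that position with a signal of 15.3 and rank 495, and replicate 2 had none. The highest replicate 2 peak had a signal of 7.37 and rank 1149, 1467 bp upstream, where the pooled signal was 11.5 (rank 2898) and replicate 1 had no overlapping peak. The 9 replicate 2 peaks included 5 in coding sequence, with signals from 2.51 to 4.6.

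The Argonaute genes that carry microRNAs had no peak among the 1000 strongest of the pooled list. At *alg-1* (WBGene00000105, X, 13949110 to 13956261, plus strand) the 7 pooled signals ran from 6.61 to 10.4, and the best rank was 4825. That peak lay 3217 bp upstream, at a place where replicate 2 had a signal of 9.23 and rank 471 and replicate 1 had no overlapping peak. In replicate 1 the highest signal in the gene was 9.35 (rank 7469), in the 5′ UTR. At *alg-2* (WBGene00000106, II, 873212 to 879885, plus strand) the 5 pooled signals ran from 5.89 to 9.12, and the best rank was 8362, in coding sequence. The highest signals at *alg-2* were 6.02 (rank 25668) in replicate 1 and 5.26 (rank 3844) in replicate 2, at positions 7846 bp apart. No *alg-2* peak of any list lay in its own promoter window, which spans 1000 bp before and 200 bp after each annotated 5′ end. The 3 upstream pooled peaks of *alg-2* lay in the body or promoter window of *fbxc-51*.

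Of the processing genes, *drsh-1* had a strong peak in its region, but the peak was nearer to another gene. *drsh-1* (WBGene00009163) lies at 9781324 to 9785724 on the minus strand of chromosome I. The pooled peak had a signal of 20.6 and rank 106, 3000 bp upstream of *drsh-1* and in the promoter window of *cox-5B*, a gene for a subunit of cytochrome c oxidase. The alpha-tubulin gene *tba-1* lies between the peak and *drsh-1*. Replicate 2 had a signal of 16.1 there, at rank 41, and replicate 1 had no overlapping peak. In the promoter window of *drsh-1* itself the pooled signal was 8.77 (rank 9706), at a summit inside *tba-1*. There, replicate 2 had signals of 4.47, 3.21 and 2.94, and replicate 1 had no peak.

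*pash-1* and *dcr-1* had the lowest values of the 9 in the pooled list, whereas in each replicate *alg-2* was below *dcr-1*. *pash-1* (WBGene00011908, chromosome I, 10598673 to 10606621, plus strand) had 0 pooled peaks and 0 replicate 1 peaks in its region. Replicate 2 had 2 peaks at *pash-1*, with a signal of 5.25 (rank 3882) in coding sequence and 2.32 (rank 19395) at 1843 bp upstream. Signals under 5.8 in the pooled list or 5.54 in replicate 1 would not have been listed, so weaker enrichment could not be seen in those lists. *dcr-1* (WBGene00000939, III, 8071967 to 8080281, minus strand) had 4 pooled peaks with signals from 6.14 to 8.17 and a best rank of 12462. The best *dcr-1* peak was 8.03 (rank 12533) in replicate 1 and 6.1 (rank 2306) in replicate 2, both in coding sequence and 865 bp apart.

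The counts of genes with a peak were set beside those of all protein-coding genes. A thresholded peak lay in 2 of the 9 regions, against 0.481% of all 19973 genes and 0.425% of the 3996 genes with regions as long as theirs (8421 to 13315 bp). These 2 helped choose the set, so that count supports nothing. The lowest thresholded peak had a signal of 27.2 and the highest pooled peak outside that list had 27.1. Among the 9 genes the nearest values on either side were 30.1 at *ain-1* and 20.6 in the *drsh-1* region. A pooled peak among the 1000 strongest lay in 4 regions (*puf-9*, *ain-1*, *drsh-1* and *nhl-2*), against 7.79% of all genes and 10.5% of genes with like region length. *puf-9* and *ain-1* are among these 4 through the choice of the set, and the *drsh-1* peak is the one in the promoter window of *cox-5B*. With the promoter window alone the count was 3 of 9, against 2.21% of all genes, with *drsh-1* no longer counted. A relaxed pooled peak lay in the promoter window of 6 of 9, against 39.1% of all genes, and a peak of each replicate in that of 4, against 12.8%. *puf-9* and *ain-1*, which helped choose the set, are among the genes in each of these promoter-window counts. The peaks of the replicates need not share a place. At *ain-1* they lay 279 bp upstream and 104 bp past the 5′ end, and at *nhl-2* 274 and 768 bp upstream. Over the whole region, any relaxed pooled peak lay in 8 regions, where the background shares were 88.4% and 95.3%. A relaxed peak of each replicate also lay in 8 regions, where the shares were 68.8% and 82.2%, so both counts were near the background. None of these counts was tested, because the genes were chosen with earlier results of these data known.

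By its highest pooled signal, each gene was placed among all protein-coding genes. The percentiles were 99.9 for *puf-9*, 99.7 for *ain-1*, 99 for *drsh-1*, 96.2 for *nhl-2*, 85.3 for *ain-2*, 68.2 for *alg-1*, 52 for *alg-2*, 38.3 for *dcr-1* and 5.82 for *pash-1*. The median of the 9 was 85.3, where all genes have 50 and genes of like region length have 59.8. That median includes *puf-9* and *ain-1*, which helped choose the set, and it was 68.2 over the other 7 genes. In replicate 2 alone every one of the 9 stood above 50, from 75.2 to the top, with a median of 96.2, or 91.3 over the other 7, where genes of like region length have 60.6. In replicate 1 alone the median was 71.7, or 56.7 over the other 7, where genes of like region length have 59.2. In that replicate *alg-2* (16.5), *dcr-1* (39.6) and *pash-1* (6.23) stood below 50. *puf-9* (98 and 100) and *ain-1* (98.7 and 99.8) were near the top in replicates 1 and 2, whereas *alg-2* (16.5 and 75.5) and *pash-1* (6.23 and 75.2) were low in replicate 1 and well above the median in replicate 2.

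**Figure D3:**
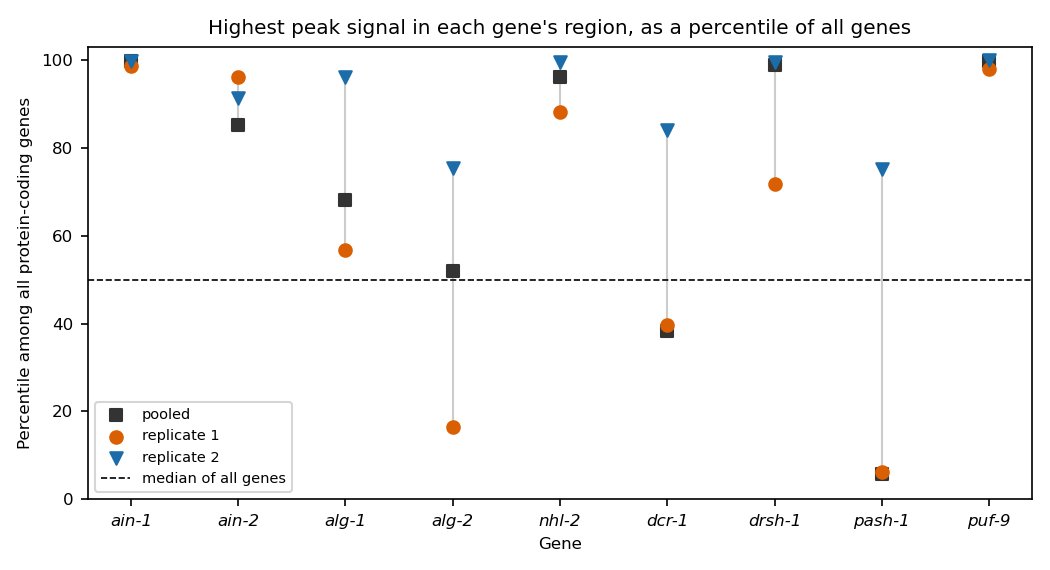
Percentile of the highest peak signal in the region of each gene among all 19973 protein-coding genes, for the pooled list (squares), replicate 1 (circles) and replicate 2 (triangles), with the median of all genes dashed. *puf-9* and *ain-1* are near the top in all 3 lists, and *pash-1* spans 5.82 in the pooled list to 75.2 in replicate 2.

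The replicates differed in how many peaks they gave these genes. Replicate 2 had 47 peaks in the 9 regions and replicate 1 had 21, although the whole list of replicate 2 is the shorter one, with 22869 peaks against 30000. The pooled list also held exactly 30000, and whether list length was capped is not stated, so these lengths are not read as results. Per 10 kb of region, the median over the 9 genes was 4.28 peaks in replicate 2 and 2.38 in replicate 1. Over genes of like region length the medians were 2.23 and 2.96, the opposite order. The highest densities in replicate 2 were 8.51 per 10 kb at *drsh-1*, 8.31 at *ain-1* and 7.7 at *ain-2*. *puf-9* was the exception, with 2.13 per 10 kb in replicate 2 and 4.26 in replicate 1. Summits in the gene's own coding sequence made up 24 of the 47 replicate 2 peaks (51.1%), 4 of the 21 replicate 1 peaks (19%) and 6 of the 39 pooled peaks (15.4%). Over all genes the shares were 29.8%, 12.2% and 16.9%. Coding sequence took up 26.6% of the 9 regions, 18.5% of the regions of like length and 15% of the regions of all genes. Its part in the difference was not tested.

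**Figure D4:**
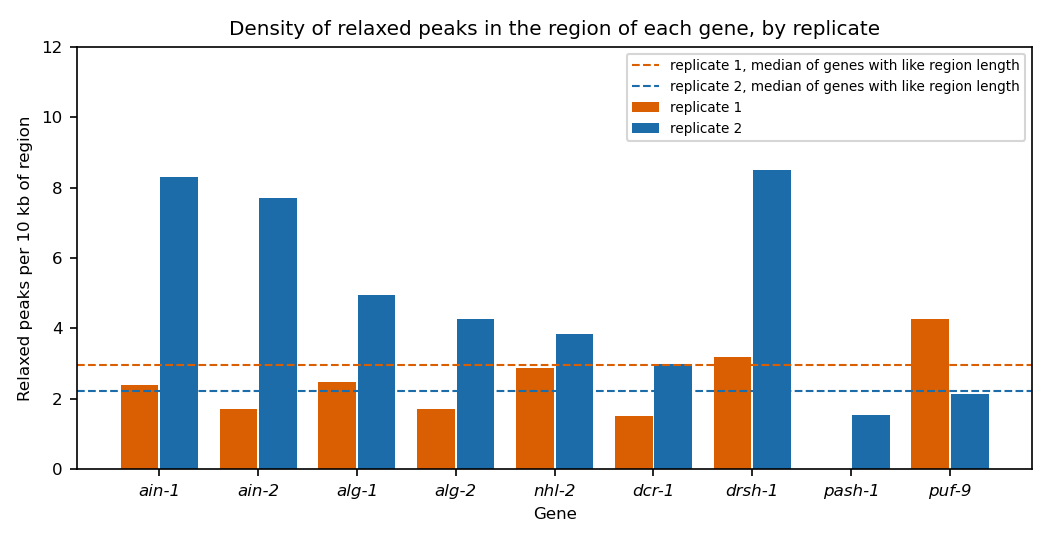
Relaxed peaks per 10 kb of region for each gene in replicate 1 (orange) and replicate 2 (blue); dashed lines give the medians over genes with like region length, 2.96 and 2.23. Replicate 2 exceeds replicate 1 at every gene except *puf-9*.

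Peaks of the same place in both replicates were few. Of the 21 replicate 1 peaks in the regions, 6 overlapped a replicate 2 peak by 1 bp or more (28.6%), against 12.1% of all replicate 1 peaks. *puf-9* and *ain-1*, which helped choose the set through peaks of this kind, supplied 3 of the 6, and at the other 7 genes the share was 3 of 15 (20%). Of the 39 pooled peaks, 6 overlapped peaks of both replicates (15.4%), 12 of replicate 1 alone, 11 of replicate 2 alone and 10 of neither. Over the whole pooled list the share that overlapped both was 10%. Without the 2 thresholded peaks the share in the regions was 4 of 37 (10.8%), near that background. Both thresholded peaks of the set overlapped a peak of each replicate. Of all 47 thresholded peaks, 45 overlapped a replicate 1 peak and 45 a replicate 2 peak, so this is the background. Requiring summits within 100 bp left *puf-9* alone in replicate 1 and both in replicate 2; by that rule 40 and 42 of the 47 thresholded peaks were found.

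G and C content differed between the replicates at these genes, as it did over the lists as wholes. In the 8 genes with peaks of both, the strongest replicate 2 peak was richer in G and C than the strongest replicate 1 peak in 8 of 8, measured within 98 bp of the summit. The same share over all genes was not computed, so this count is not read as a trait of these genes. The values ran from 26.9% to 42.1% in replicate 1 and from 38.6% to 53.8% in replicate 2. At *alg-1* they were 26.9% and 51.8%, at *nhl-2* 32% and 51.8%, and at *dcr-1* 36% and 38.6%. The same held for the lists as wholes. The 1000 strongest peaks had a median of 34% in replicate 1 (985 nuclear peaks) and 48.2% in replicate 2. GAGAG lay within 98 bp of 26.5% of the former summits and 50.4% of the latter. Over all nuclear peaks the median G and C content was 34% in replicate 1 and 43.7% in replicate 2. GAGAG lay at 22.1% and 35.3% of those summits. In the 9 regions GAGAG lay at 11 of 21 replicate 1 summits (52.4%) and 18 of 47 replicate 2 summits (38.3%). The replicate 1 share was thus above that of all its peaks, and the replicate 2 share was near it. The median G and C content in the regions was 36% and 46.2%. The part of base composition in where each replicate placed its peaks was not tested.

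**Figure D5:**
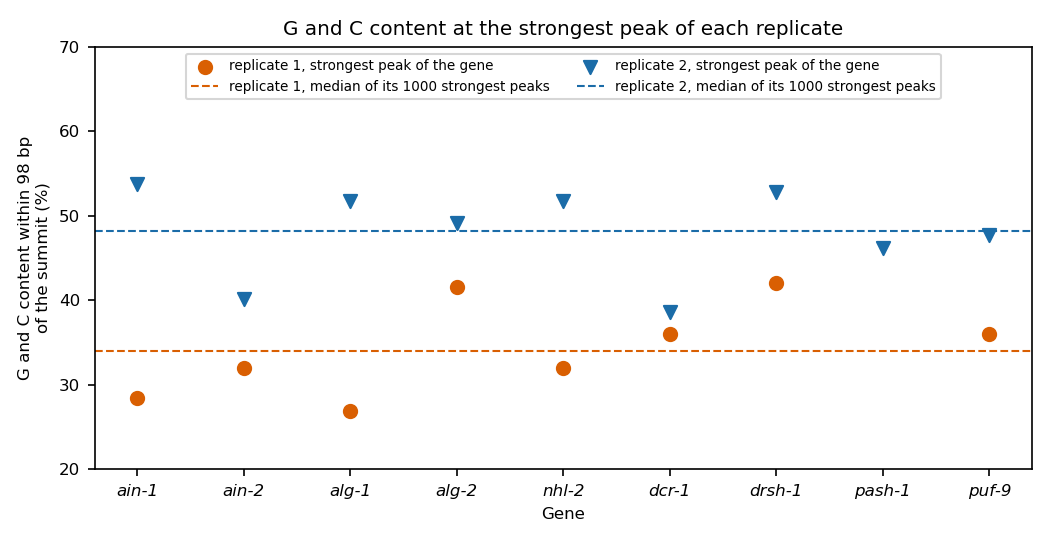
G and C content within 98 bp of the summit of the strongest peak of each replicate in each gene, in percent; dashed lines are the medians of the 1000 strongest peaks of each replicate, 34% and 48.2%. Triangles (replicate 2) lie above circles (replicate 1) at all 8 genes that have both, and *pash-1* has no replicate 1 peak.

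The wider pathway was described with 4 further lists, whose background is the 7.79% of all genes with a pooled peak among the 1000 strongest. Among 23 genes of silencing effectors and messenger RNA decay, 7 had such a peak (30.4%), and the median percentile of highest signal was 78.8. *ifet-1*, a gene for an eIF4E-binding translational repressor, had a thresholded peak with a signal of 42.5 at rank 15, in a promoter it shares with the ribosomal protein gene *rps-1*. The deadenylase complex gene *ntl-11* had a promoter peak of signal 24.4 at rank 56. Its ranks were 1245 in replicate 1 and 157 in replicate 2. The others were *let-711* (signal 15.9), *pab-1* (15.4), *ntl-2* (15.3), *ntl-9* (14.9) and *ccf-1* (14.1), a nuclease of that complex. None of these 5 peaks lay in its gene's promoter window. No replicate 2 peak overlapped those of *let-711*, *ntl-2* and *ccf-1*, and no replicate 1 peak overlapped that of *ntl-9*. The *pab-1* peak had rank 13022 in replicate 1 and 3627 in replicate 2.

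Among 17 genes of microRNA turnover and modulation, 3 had a peak among the 1000 strongest (17.6%; median percentile 83.2). These were *ncl-1*, *vig-1* and the exonuclease gene *xrn-2*. The *ncl-1* peak, at a TRIM-NHL gene, had a signal of 20.7, 9986 bp past the 5′ end, and no replicate 1 peak overlapped it. Signals were 20.6 for *vig-1*, 445 bp upstream, and 18.8 for *xrn-2*, in the promoter window of *rpl-43*. Among 28 other Argonaute and RNA interference genes there were 2 (7.14%; median percentile 64.2). They were *eri-5* (signal 16.2 in the promoter windows of *sec-61.B* and *trap-3*, rank 66 in replicate 2 and 28246 in replicate 1) and *ego-1*, an RNA-dependent RNA polymerase gene (signal 14.7, rank 82 in replicate 1 and 22841 in replicate 2). Among 16 other Pumilio family genes and their partners there were 3 (18.8%; median percentile 53.3): *puf-12* (signal 15.4), *puf-3* (14.1) and *nos-3* (13.9), none of them in its promoter window. In replicate 1 no peak overlapped that of *puf-12*, and in replicate 2 none overlapped those of *puf-3* and *nos-3*. No relative of *puf-9* in that list had a thresholded peak.

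The genes most like *ain-1* and *puf-9* were taken as those with the smallest distance in 3 percentiles, of the pooled list and of the 2 replicates. For *ain-1* they were F59C12.3 (distance 0), whose region covers the same peaks because it is the neighbouring gene, and *ifet-1* and *rps-1* (0.579 for both), which share 1 peak. For *puf-9* they were *ldb-1*, a LIM domain-binding protein gene (0.374), *cbp-1*, a CBP/p300 acetyltransferase gene (0.564), and F59C12.3 (0.759). Of these, *cbp-1* had no thresholded peak, with a highest pooled signal of 24.3. The measure rests on 2 replicates and their pool, and a small distance says only that the highest signals ranked alike.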

How the data were processed

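Positions of eGFP-tagged ZTF-11 in whole L4 larvae came from 4 deposited peak lists on build ce11, for 1 group of 2 biological replicates. Per the deposited file listings, the authors called relaxed peaks against control alignments, for each replicate separately and for the pool, and derived the thresholded list from these. The caller is not given in the sources used here. Each deposited peak has a signal value of unstated scale, used only to rank within a list. The deposited −log10 q value ran from 0.0352 to 2.12 in the pooled list, from 0.0262 to 0.629 in replicate 1 and from 2.58 to 3.57 in replicate 2. The pooled list was deposited as peaks and background for input to the IDR step, so low-ranked entries can be background. Whether this column was computed alike for each list is not stated. Lists on ce10 were not analysed here.

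Genes came from Ensembl release 115 (WBcel235) and sequences from RefSeq; positions count from 1. A peak was counted where its summit lay in the region. Percentiles rank genes by their highest signal, with genes without a peak tied. Of 87 symbols in 4 lists, 84 matched. The rule for named genes takes the 9 genes, list genes with a thresholded peak or one among the 1000 strongest, genes sharing a promoter with a described peak, and the 3 most alike. The genes and lists were chosen with earlier results of these data known, and no test was made. The sequence of a further peak is not reported here. Like region length was added after the data were seen. Region assignment was checked on planted peaks. Python 3.11.15, numpy 2.4.6, pandas 2.3.3 and matplotlib 3.10.9 were used.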

Additional observations from a re-analysis of the deposited data

How the results depend on the processing

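Alternatives were other regions (2 kb upstream, the promoter window, upstream sequence up to the neighbouring gene, any overlap), other numbers of peaks, signals at or above the median, and each replicate alone. In 4 settings a count moved by more than 1.5 times. Genes with a thresholded peak fell from 2 to 1, *puf-9*, among the 24 strongest thresholded peaks. Genes with a relaxed peak of both replicates fell from 8 to 4 in the promoter window, where 12.8% of all genes had them. They fell to 5 with the 5000 strongest peaks of each replicate. With summits within 100 bp, 1 of the 2 thresholded peaks was found in replicate 1. With either replicate left out, genes with any relaxed peak numbered 8 to 9, and genes with a peak among the 1000 strongest 3 to 5. The median percentile then ran from 71.7 to 96.2. No share over all genes is given for these counts or for the 5000 strongest peaks, so they are not set against a background. The median percentile was 72.1 with 2 kb upstream, 80.8 among genes of like region length, and 68.2 without *ain-1* and *puf-9*, an alternative added after the data were seen. The highest pooled signal of the *drsh-1* region fell from 20.6 to 8.77 with 2 kb upstream or the promoter window. In the promoter window it was 9.55 for *ain-2*, and for *alg-1* it was 9.73, or 9.74 with 2 kb upstream. With upstream sequence up to the neighbouring gene, *drsh-1* held no pooled peak. Fewer peaks or less sequence enter these settings by construction. With 2 replicates and unknown depth, a missing peak was only not listed and is not shown to be absent.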
